A study of Mus musculus with 36 samples.

Results

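Whether hippocampal slices of amyloid-model mice answered synaptic stimulation differently from those of wild-type mice was measured in animals that had all received BD10-2, a small molecule made to act on the neurotrophin receptors TrkB and TrkC. The quantity described here is the interaction: the log2 stimulated-to-sham ratio in T41B mice minus the same ratio in wild-type mice, so that a positive value means a larger ratio in T41B. T41B mice (Thy1-hAPP London/Swedish, Line 41) carry human APP with familial Alzheimer mutations behind the Thy1 cassette, which drives expression in neurons. Wild-type mice were C57BL/6. Every mouse was dosed by oral gavage for 3 months, from 13 to 16 months of age. Slices of the right hippocampus then were given theta-burst stimulation, or were left in the sham procedure for as long, and were frozen at once. The stimulation was delivered 3 times, each time with 10 bursts that followed each other at 200 ms, and a burst held 4 pulses at 100 Hz.

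All libraries labelled with BD10-2 were used, 20 of the 36 in the study. Libraries that shared a mouse and a stimulation label were added together; the labels do not say whether such libraries came from the same slice. This left 16 samples from 10 mice: 3 wild-type sham, 3 wild-type stimulated, 5 T41B sham and 5 T41B stimulated. Both slices were present for 2 wild-type mice (Mouse1565 and Mouse1571) and 4 T41B mice (Mouse1563, Mouse1564, Mouse1570 and Mouse1592). Values below are given in CPM, counts scaled to the size of the sample, in the order Mouse1565, Mouse1571 and Mouse1590 for wild-type sham and Mouse1565, Mouse1571 and Mouse1586 for wild-type stimulated slices. The T41B order is Mouse1557, Mouse1563, Mouse1564, Mouse1570 and Mouse1592 for sham and Mouse1563, Mouse1564, Mouse1570, Mouse1572 and Mouse1592 for stimulated slices.

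Theta-burst stimulation is a standard way to induce long-term potentiation, and neurotrophin signalling through TrkB is a known part of that process. A hippocampal slice also holds astrocytes, oligodendrocytes, vessels and microglia, the resident immune cells of the brain. In amyloid models microglia near plaques take on a distinct expression state. Interferon-stimulated genes are switched on by transcription factor complexes that contain Stat2 and Irf9, and many of their products take part in antiviral defence and antigen presentation.

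The libraries held between 11597555 and 28125842 counts. Thy1, which the transgene cassette carries, checked the genotype labels: it ranged from 254 to 373 CPM in wild type and from 908 to 2250 CPM in T41B, with no overlap between libraries. The lowest T41B library was 1 of the 2 libraries labelled as stimulated from Mouse1592, and the other was at 1970 CPM. These same libraries held 89.7 and 214 CPM of Ptgs2 and 5.24 and 13.0 CPM of Ifi203. In the other stimulated T41B samples Ptgs2 was between 423 and 716 CPM and Ifi203 between 33.2 and 47.8 CPM. The stimulated sample of Mouse1592 thus stood apart for many of the genes below, and a comparison without it follows the results on all samples. The 17 hippocampal subfield and thalamic markers together were at 766.5 to 1024 CPM in every sample. This pooled level does not tell hippocampus from thalamus.

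Across the 18936 genes tested, no gene had an interaction at an edgeR adjusted p under 0.05 (0 genes, 0% of those tested). At an unadjusted p under 0.05 there were 904 genes, 513 with a higher interaction (2.71% of those tested) and 391 with a lower one (2.06%). This split moved with the scaling of the libraries: it was 614 higher and 289 lower with RLE size factors, and 441 higher and 515 lower with upper-quartile factors. The median interaction of all genes was -0.0194 and 46.1% of genes were above 0. DESeq2 called 16 genes, 14 higher and 2 lower, and limma-voom called 0 genes with 810 at an unadjusted p under 0.05.

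The gene with the smallest p was Ifi203, a member of the interferon-inducible p200 family of nucleic-acid sensors. Ifi203 was at 5.91, 6.12 and 6.12 CPM in wild-type sham slices and at 12.4, 11 and 12.2 CPM in wild-type stimulated slices. In T41B it was at 2.74, 2.53, 1.38, 2.56 and 2.42 CPM in sham slices and at 47.8, 46.9, 36.3, 33.2 and 9.43 CPM in stimulated slices. T41B sham slices lay below all wild-type sham slices, 4 of the 5 stimulated T41B slices lay above all others, and the fifth, from Mouse1592, lay above the sham slices but below the wild-type stimulated slices. The interaction was 2.90 (SE 0.51, edgeR adjusted p = 0.281), from a stimulated-to-sham log2 ratio of 0.98 in wild type and 3.87 in T41B. Ifi203 has close relatives in its gene cluster, so that reads could have been divided between copies.

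Ptgs2, which encodes the inducible cyclooxygenase COX-2 of prostaglandin synthesis and is an activity-induced gene of neurons, had an interaction of 2.26 (SE 0.48, edgeR adjusted p = 0.51). Its level was 34.4, 36.9 and 25.1 CPM in wild-type sham slices and 112, 164 and 82.5 CPM in wild-type stimulated slices. In T41B sham slices it was 26.6, 35.4, 23.6, 26 and 22.9 CPM, and in T41B stimulated slices 716, 641, 423, 458 and 156 CPM. The sham groups overlapped, whereas the stimulated T41B slices other than that of Mouse1592 were all above the highest wild-type slice.

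Rnf180, which encodes a membrane-bound ubiquitin ligase, showed the same arrangement at lower levels. It was 9.02, 11 and 11.2 CPM in wild-type sham, 13.7, 15.5 and 14.1 CPM in wild-type stimulated, 10.8, 12.1, 11.9, 10.2 and 8.84 CPM in T41B sham, and 46.6, 49.4, 34.8, 32.5 and 22.7 CPM in T41B stimulated slices. Here all 5 stimulated T41B slices, Mouse1592 included, were above every other sample. Its interaction was 1.31 (SE 0.27, edgeR adjusted p = 0.51).

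In Il10ra, Atp13a5 and Gm38255, which are among the 10 genes with the smallest p in the higher direction, the wild-type mean was lower after stimulation. Il10ra, the ligand-binding receptor chain for interleukin-10, averaged 8.40 CPM in sham and 3.92 CPM in stimulated wild-type slices, against 18.6 and 19 CPM in T41B. Atp13a5, a cation-transporting ATPase, had a log2 ratio of -1.57 in wild type and -0.63 in T41B. The interactions were 1.15 (SE 0.26) for Il10ra and 0.94 (SE 0.20) for Atp13a5.

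Other genes of this direction were the secreted protease gene Adamts8 at 1.26 (SE 0.25), the cytokine-signalling inhibitor gene Cish at 1.01 (SE 0.23), and the predicted genes Gm7967 at 1.81 (SE 0.39) and Gm38255 at 2.19 (SE 0.48). Cish was between 13.3 and 20.2 CPM in stimulated T41B slices and no higher than 6.85 CPM in any other sample. Gm38255 did not exceed 1.32 CPM in any sample. Of the 10 genes, DESeq2 called 8 and did not call Cish or Gm38255.

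**Figure D1:**
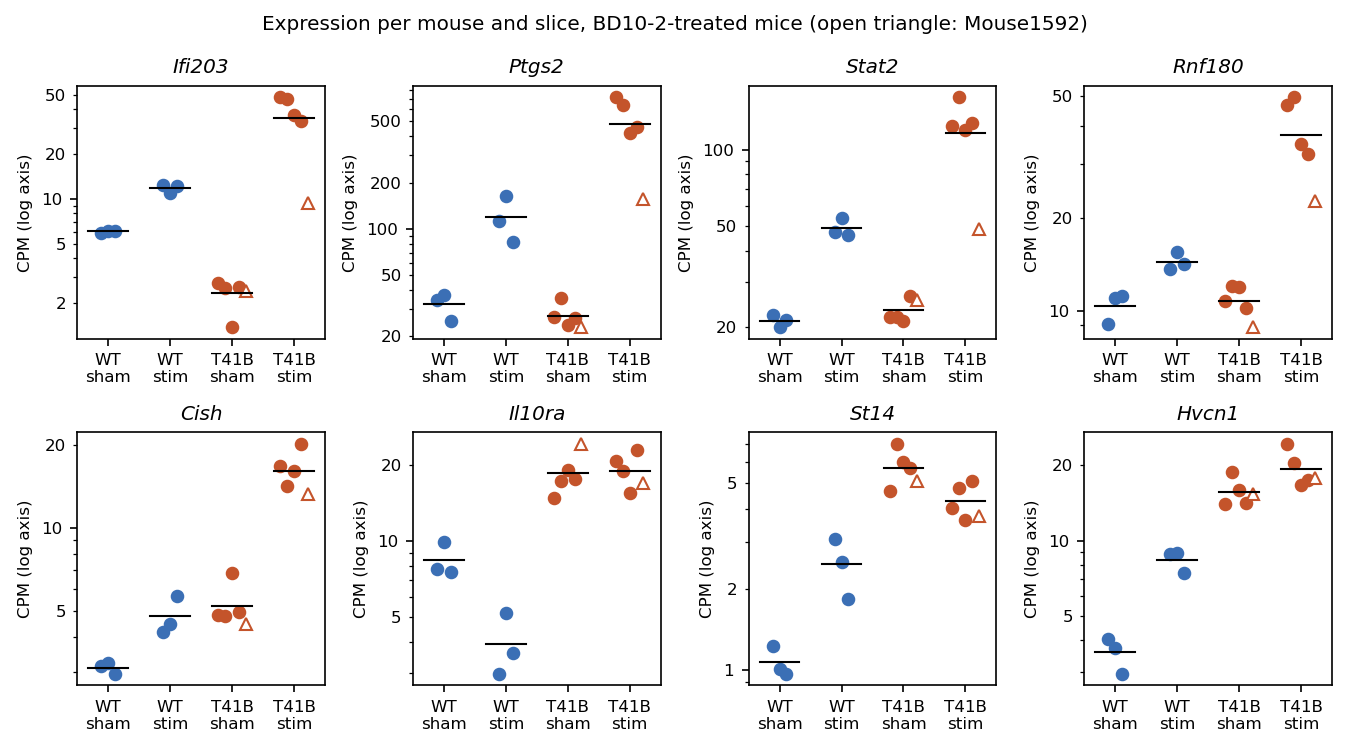
CPM on a logarithmic axis for 8 genes in the 16 BD10-2 samples, by genotype (WT wild type) and slice treatment. Each point is a sample, bars are group means and open triangles mark Mouse1592, whose stimulated sample lies below the other 4 stimulated T41B samples for Ifi203, Ptgs2, Stat2, Rnf180 and Cish but among them for Il10ra, St14 and Hvcn1.

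Among the genes with a lower interaction, St14 had the smallest p. It encodes matriptase, a membrane-bound serine protease. St14 was 1.23, 1.002 and 0.966 CPM in wild-type sham and 3.08, 2.52 and 1.83 CPM in wild-type stimulated slices, and 4.68, 7.004, 5.98, 5.70 and 5.10 CPM in T41B sham and 4.02, 4.81, 3.62, 5.11 and 3.78 CPM in T41B stimulated slices. The T41B groups overlapped each other and both lay above all wild-type samples. The interaction was -1.59 (SE 0.28, edgeR adjusted p = 0.281), and the stimulated sample of Mouse1592 lay within its group.

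Hvcn1, the voltage-gated proton channel found in microglia, followed this arrangement, with means of 3.58 and 8.40 CPM in wild-type sham and stimulated slices and of 15.6 and 19.3 CPM in T41B. Its interaction was -0.90 (SE 0.20). Igsf6, an immunoglobulin-superfamily membrane protein, was between 0.422 and 0.652 CPM in wild-type sham and between 5.99 and 10.3 CPM in wild-type stimulated slices, and went from 1.55 to 2.21 CPM in T41B sham to 7.28 to 12.1 CPM in T41B stimulated slices. The interaction of Igsf6 was -1.28 (SE 0.32). Itga5, the fibronectin receptor subunit, was at -1.08 (SE 0.29), with a log2 ratio of 2.58 in wild type and 1.501 in T41B. In each of these 3 genes both genotypes had higher means after stimulation, and T41B started from the higher sham level.

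Rasgrp3, an exchange factor that activates Ras, had another arrangement. Its wild-type samples were between 11.2 and 15.5 CPM in either condition, and T41B slices were between 21.8 and 24.4 CPM in sham and between 10.7 and 14.97 CPM after stimulation, giving -0.77 (SE 0.17). The other genes of this direction were Gp1bb at -1.92, Ccdc155 at -1.28, Sat2 at -0.62 and Ripk4 at -1.55. Ywhaq-ps3, a pseudogene of the 14-3-3 gene Ywhaq whose value is uncertain because reads could have been divided between the copies, was at -2.12 (SE 0.43). With the mouse as a random block (limma-voom), Ywhaq-ps3 was the single gene called, at -2.34 and adjusted p = 0.0404, in a range of 0.00171 to 1 over 57 alternatives. DESeq2 called 2 genes lower, Ywhaq-ps3 at adjusted p = 0.00782 and St14 at adjusted p = 0.00628, the latter in a range of 0.00112 to 1.

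The list of 25 interferon-stimulated genes leaned towards a larger ratio in T41B. All 25 members were tested and all 25 had a positive interaction, against 46.1% of all genes. The median was 0.79, against -0.0194 for all genes. The median stimulated-to-sham log2 ratio of the list was 3.17 in wild type and 4.04 in T41B. No member passed the test, and 5 of 25 were at an unadjusted p under 0.05, all in the higher direction, against 2.71% of all genes. The largest interactions were those of Ifit2, an inhibitor of viral translation, at 1.97 (SE 0.63), and of Cmpk2, a mitochondrial nucleotide kinase, at 1.93 (SE 0.57). Members of a list were measured in the same 16 samples and are not replicates. Counts of members, here and for the lists below, therefore describe the lists and are not tests. The lists, this one included, were chosen with earlier results of these data known.

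Stat2, a subunit of the factor that drives these genes, was 22.1, 19.9 and 21.3 CPM in wild-type sham and 47.3, 53.8 and 46.0 CPM in wild-type stimulated slices. In T41B it was 21.9, 21.9, 21, 26.4 and 25.4 CPM in sham and 125, 161, 120, 127 and 48.6 CPM in stimulated slices. The sham groups overlapped, 4 stimulated T41B slices were above 100 CPM, and that of Mouse1592 lay among the wild-type stimulated slices. Its interaction was 1.1 (SE 0.34, edgeR adjusted p = 0.87). Irf9, which binds DNA within that factor, was at 0.60 (SE 0.26).

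In all 25 genes of the list the stimulated sample of Mouse1592 was the lowest of the 5 stimulated T41B samples, against 19.5% of all genes tested. In all 25 the other 4 samples were above every wild-type stimulated sample, against 13.4% of all genes. In 22 of the 25, T41B sham samples were also above every wild-type sham sample, against 11% of all genes, so the genotypes differed in level before stimulation. Averaged as log2(CPM + 1) over the list, the stimulated-minus-sham difference within a mouse was 2.31 and 2.58 in the wild-type mice and 3.90, 4.17 and 3.97 in Mouse1563, Mouse1564 and Mouse1570. In Mouse1592 it was 1.8, below both wild-type mice. The added 1 shrinks differences most at low levels, and the mean sham score was 1.82 in wild type and 2.73 in T41B. The gap between genotypes in these differences is thus not on the scale of the fitted ratios, whose list medians were 3.17 and 4.04.

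Many promoters of this list hold a sequence that the choice of genes did not use directly. The genes were listed as interferon-stimulated, so the share below describes the list and does not test the interaction. The core of the interferon-stimulated response element was searched on both strands as GAAA, 2 bases of any kind and GAAA, in windows of 300 bases, from 250 before to 50 after each start (RefSeq, GRCm38.p6). It was present for 12 of the 19 list members found in the promoter table (63.2%), for 465 of 12236 genes tested (3.80%) and in 1131 of all 32851 windows (3.44%). It was present for 0 of the 6 MHC class II and costimulation genes found there. A match is a run of letters and not a measured binding site. Windows of Cmpk2 and Ifit2, which had the largest interactions of the list, held no match. The stretches below come from list members with a match before the start and from Slfn5 of the schlafen family. They are read 5′ to 3′ on the strand of the gene, and capitals mark each match, which has TTTC in place of GAAA where it lies on the opposite strand.
Stat2 (chr10:128270248-128270320, + strand): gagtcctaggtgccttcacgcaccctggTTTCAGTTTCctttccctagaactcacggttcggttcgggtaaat
Ifit3 (chr19:34583338-34583451, + strand): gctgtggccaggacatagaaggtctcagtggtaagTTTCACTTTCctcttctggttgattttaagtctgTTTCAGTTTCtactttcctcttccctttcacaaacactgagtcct
Slfn5 (chr11:82951912-82951991, + strand): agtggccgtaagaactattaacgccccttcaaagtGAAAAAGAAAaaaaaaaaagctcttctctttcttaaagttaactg

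Ifit3, with 2 matches, had an interaction of 0.49 (SE 0.57), and Slfn5, with 1 match, had 2.26 (SE 0.71). Slfn5 belongs to a family of interferon-inducible growth regulators. Its stimulated T41B slices were at 179, 180, 81.2, 95.9 and 15.6 CPM and its wild-type stimulated slices between 14.9 and 22.5 CPM, so that the sample of Mouse1592 again lay in the wild-type range. The schlafen family as a whole had a median of 0.65, with 5 of 7 members positive.

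**Figure D2:**
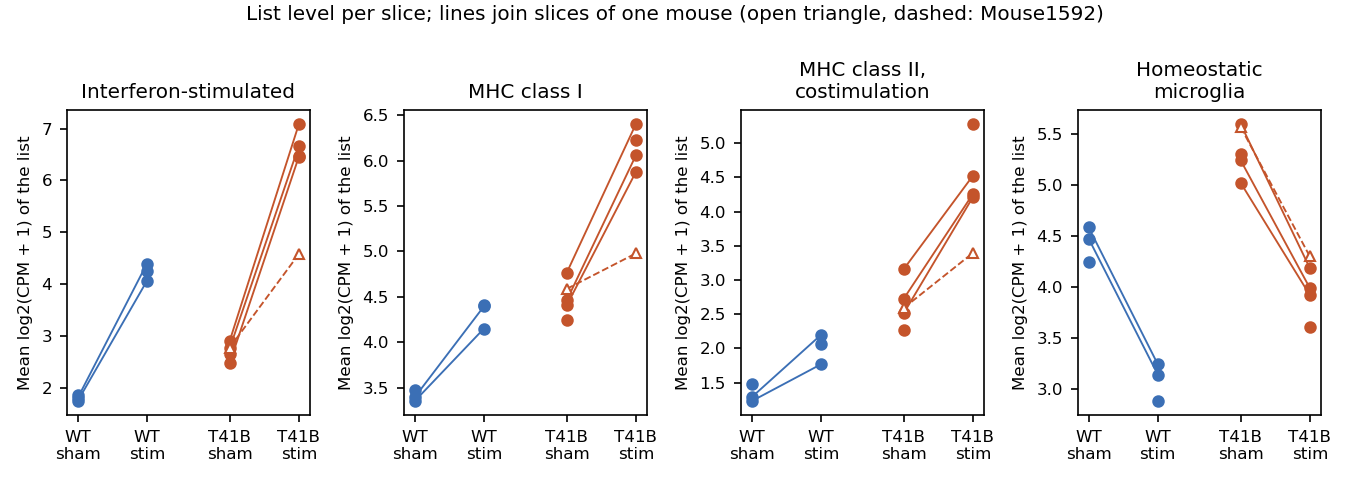
Mean log2(CPM + 1) over the members of 4 lists in each of the 16 samples, with lines joining slices of the same mouse and dashed lines and open triangles for Mouse1592. In the interferon-stimulated list the other 4 stimulated T41B samples sit between 6.46 and 7.08 and Mouse1592 at 4.58, next to the wild-type stimulated samples at 4.06 to 4.40.

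Antigen-presentation genes leaned the same way. The 15 genes of MHC class I and peptide loading, which display peptides to CD8 T cells, were all tested and all positive, with a median of 0.43. Tapbp, Tap1 and Tap2, which load and transport those peptides, were at 0.86 (SE 0.36), 0.97 (SE 0.47) and 0.81 (SE 0.35). Tap1 was 16.5, 21.1 and 23.9 CPM in wild-type stimulated and 86.5, 123, 103, 108 and 28.4 CPM in T41B stimulated slices, from sham levels of 3.62 to 4.08 and 6.54 to 10.2 CPM. In 14 of the 15 genes Mouse1592 had the lowest stimulated T41B value, against 19.5% of all genes.

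The 13 genes of MHC class II and costimulation were likewise all positive, with a median of 0.94, the largest of the 46 lists. The median SE of these genes was 0.98, above that median. Averaged as log2(CPM + 1), their stimulated T41B level was 5.28 in Mouse1572 and 3.39 to 4.52 in the other mice. Cd40, the costimulatory receptor, was at 2.59 (SE 1.14) and the costimulatory ligand Cd80 at 1.28 (SE 0.54). Cd40 was at most 0.345 CPM in every sham sample, 1.37, 3.22 and 1.98 CPM in wild-type stimulated and 18.04, 23.1, 9.68, 21.2 and 2.11 CPM in T41B stimulated slices. H2-Ab1, a class II chain gene chosen after its values were seen, averaged 0.600 CPM in sham and 0.254 CPM in stimulated wild-type slices, against 8.68 and 23.9 CPM in T41B, and its interaction of 2.35 had an SE of 1.64. H2 and Ifit genes have near-identical relatives, so their separate values are uncertain. For both lists 0 members passed the test, with 3 of 15 and 2 of 13 at an unadjusted p under 0.05 in edgeR, all higher, against 2.71% of all genes in that direction.

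Other immune lists were mixed. Of the 17 complement genes 11 were positive (median 0.31), against 46.1% of all genes, and 5 were at an unadjusted p under 0.05, all higher, against 2.71% of all genes. C1qa, a subunit of the C1q recognition protein, was 33.4, 33.2 and 28.7 CPM in wild-type sham and 13.9, 16.1 and 12.6 CPM in wild-type stimulated slices, and between 105 and 149 CPM in T41B sham and between 78.4 and 118 CPM in T41B stimulated slices. The stimulated wild-type samples were thus below all wild-type sham samples, while the T41B groups overlapped. The interaction of C1qa was 0.84 (SE 0.20) and that of C1ra, a protease of the same complex, 1.14 (SE 0.40).

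Among Fc receptors, which bind antibody, the high-affinity receptor Fcgr1 was at 2.50 (SE 0.71) and Fcgr3 at 0.99 (SE 0.26). Fcgr3 was lower in all stimulated than in all sham samples of the same genotype, at 2.19 to 2.99 against 8.05 to 9.13 CPM in wild type and at 11.1 to 20.1 against 21.1 to 28.8 CPM in T41B. The list of 14 had 9 positive members, against 46.1% of all genes, with 4 higher and 2 lower at an unadjusted p under 0.05, against 2.71% and 2.06%. Toll-like receptors also went both ways. Tlr3, a sensor of double-stranded RNA, was at 1.29 (SE 0.39), and Tlr1, which pairs with Tlr2 to bind bacterial lipopeptides, was at -1.27 (SE 0.43).

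Medians of the cytokine and chemokine lists moved with the samples and the block, and so did those of the lists above. Over 57 alternatives the interferon-stimulated median ranged from 0.56 to 1.22 and that of MHC class II and costimulation from 0.63 to 1.52. The schlafen median ranged from 0.095 to 1.04. The 12 CC chemokines tested had a median of -0.25 with 4 positive. Ccl5 and Ccl9, the members with the largest wild-type log2 ratios (6.20 and 4.67), were at -0.24 (SE 0.85) and -0.45 (SE 0.52). Tnf was at -0.89 (SE 0.29), with a log2 ratio of 4.66 in wild type and 3.77 in T41B. Its stimulated slices were at 110, 240 and 153 CPM in wild type and between 221 and 326 CPM in T41B, with sham slices at 6.21 to 7.49 and 15.9 to 25.3 CPM. The sample of Mouse1592, at 265 CPM, lay among its group for Tnf. The 17 tested cytokines of that list had a median of 0.17 with 11 positive, the 12 CXC and CX3C chemokines 0.07 with 7 positive, and the 12 interleukin-1 family genes 0.19 with 10 positive, against 46.1% of all genes. Without the stimulated sample of Mouse1592 these medians were 0.33, 0.21 and 0.31, and that of the CC chemokines was -0.13. The cytokine median was 0.40 without Mouse1590, which gave a wild-type sham sample, and 0.60 with the mouse as a fixed block, where the interferon list was at 0.64. The CC chemokine median was -0.077 without Mouse1590, -0.015 with the fixed block and 0.0044 in batch I. Over 57 alternatives the medians ranged from -0.0079 to 0.60 for the cytokines, from -0.44 to 0.053 for the CC chemokines, from -0.075 to 0.37 for the CXC and CX3C chemokines and from 0.031 to 0.44 for the interleukin-1 family.

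Signalling genes downstream of these receptors had small positive medians. The NF-kappaB list stood at 0.26 with 16 of 18 positive, the STAT3, SOCS and C/EBP list at 0.28 with 11 of 15, and the AP-1 list at 0.10 with 9 of 12. The AP-1 median was 0.17 without Mouse1590 and 0.21 with the fixed block. It ranged from -0.013 to 0.27 and was positive in 56 of 57 alternatives. Ikbke, a kinase of the interferon-inducing pathway, was at 1.06 (SE 0.34), and the AP-1 subunit gene Fosl2 at 0.60 (SE 0.15). Cebpa, a C/EBP transcription factor of myeloid cells, was at -0.56 (SE 0.18), with means of 20.5 and 21.4 CPM in wild-type and of 42.9 and 30.4 CPM in T41B sham and stimulated slices. Fosl2 was between 128 and 155 CPM in every wild-type sample, between 95.2 and 141 CPM in T41B sham and between 162 and 195 CPM in T41B stimulated slices, above all others. The glycolytic regulator Pfkfb3 was at 0.77 (SE 0.22), the mitochondrial superoxide dismutase gene Sod2 at 0.52 (SE 0.17) and the small heat-shock protein gene Hspb1 at 1.22 (SE 0.32).

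The homeostatic microglia list had a median log2 ratio of -1.58 in wild type and -1.33 in T41B. Its median interaction was 0.14, with 8 of 10 positive and none at an unadjusted p under 0.05, against 4.77% of all genes. Without the stimulated sample of Mouse1592 that median was 0.024, with 6 of 10 positive. It was 0.29 without Mouse1590 and 0.23 with the fixed block. Tmem119, a surface marker of homeostatic microglia, had log2 ratios of -3.45 and -3.09 and an interaction of 0.36 (SE 0.41). In bulk RNA, fewer cells of a type and less RNA per cell cannot be told apart. The list of plaque-associated microglia had a median of 0.12 with 8 of 15 positive, although its summed level was 2816 to 4459 CPM in T41B and 1619 to 1943 CPM in wild-type samples. Cd68, a lysosomal marker of phagocytes, was at -0.69 (SE 0.32).

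Markers of other cell types were read beside these lists. Of 15 markers of infiltrating leukocytes, 2 passed the filter on low counts, 14 stayed below 1 CPM in every sample and Ly6g, the neutrophil marker, was at 0. Their summed level was 0.593 to 1.27 CPM in wild-type sham, 0.820 to 0.886 CPM in wild-type stimulated, 1.24 to 3.00 CPM in T41B sham and 2.23 to 4.42 CPM in T41B stimulated slices, and its part in the immune values was not tested. The 10 fibroblast markers were all positive, with a median of 0.66. Without the wild-type sham sample of Mouse1590, in which their summed level was the highest at 242.1 CPM, the median was 0.11. Astrocyte, oligodendrocyte and vascular lists had medians of 0.05, -0.24 and 0.21. Without Mouse1590 the astrocyte and oligodendrocyte medians were 0.14 and -0.078, with the fixed block they were 0.18 and -0.042, and the vascular median was -0.091 in batch I. Their summed levels overlapped between the genotypes in stimulated slices for oligodendrocyte and vascular markers. Astrocyte markers summed to 8719 to 9867 CPM in wild-type and 10260 to 13720 CPM in T41B stimulated slices.

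Genes that BD10-2 and the transgene act on showed small interactions. Of 15 neurotrophin-pathway genes 13 were tested, with a median of 0.06, 9 positive and none at an unadjusted p under 0.05, against 4.77% of all genes. That median was 0.13 without Mouse1590 and 0.15 with the fixed block. Bdnf, the main ligand of TrkB, was at 0.23 (SE 0.20). Ntrk2, which encodes TrkB, was at 0.16 (SE 0.10), with all 16 samples between 586 and 728 CPM. Ntrk3, which encodes TrkC, was at -0.02 (SE 0.16) and changed sign with the scaling, to 0.0089 with RLE size factors. App was at 0.10 (SE 0.12) and Thy1 at 0.10 (SE 0.25). The sign of Thy1 turned to -0.11 with batch as a term, and its summed T41B samples were between 1048 and 2237 CPM. Mme, which encodes the amyloid-degrading protease neprilysin, was at 0.67 (SE 0.35). None of the 16 APP-processing genes was at an unadjusted p under 0.05, against 4.77% of all genes. At that share a list this short can hold none, so the count does not set these genes apart.

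Neuronal lists had medians between -0.06 and 0.16. GABAergic genes were at 0.16 (0.050 without Mouse1590) with 10 of 17 positive, activity-induced synaptic effectors at 0.13 with 13 of 16, and neuropeptide genes at 0.12 with 10 of 15. Activity-regulated genes, which include the immediate-early factors of the Fos, Egr and Nr4a families, had a median of -0.01 with 7 of 15 positive, and Nr4a3 was the member with the smallest p, at 0.53 (SE 0.17). The median log2 ratio of that list was -0.08 in wild type and 0.06 in T41B, so its typical member changed little in either genotype. Its median interaction was positive in 40 of 57 alternatives. Fosb, whose log2 ratio was -0.95 in wild type and -0.85 in T41B, was at 0.10 (SE 0.21). Presynaptic genes had a median of 0.01, voltage-gated channels -0.01 and glutamate receptors with postsynaptic density genes -0.06, the last with 3 of 18 positive. Grm2, a presynaptic metabotropic glutamate receptor, was at -0.60 (SE 0.27). The range of median interactions over all 46 lists was -0.25 to 0.94.

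**Figure D3:**
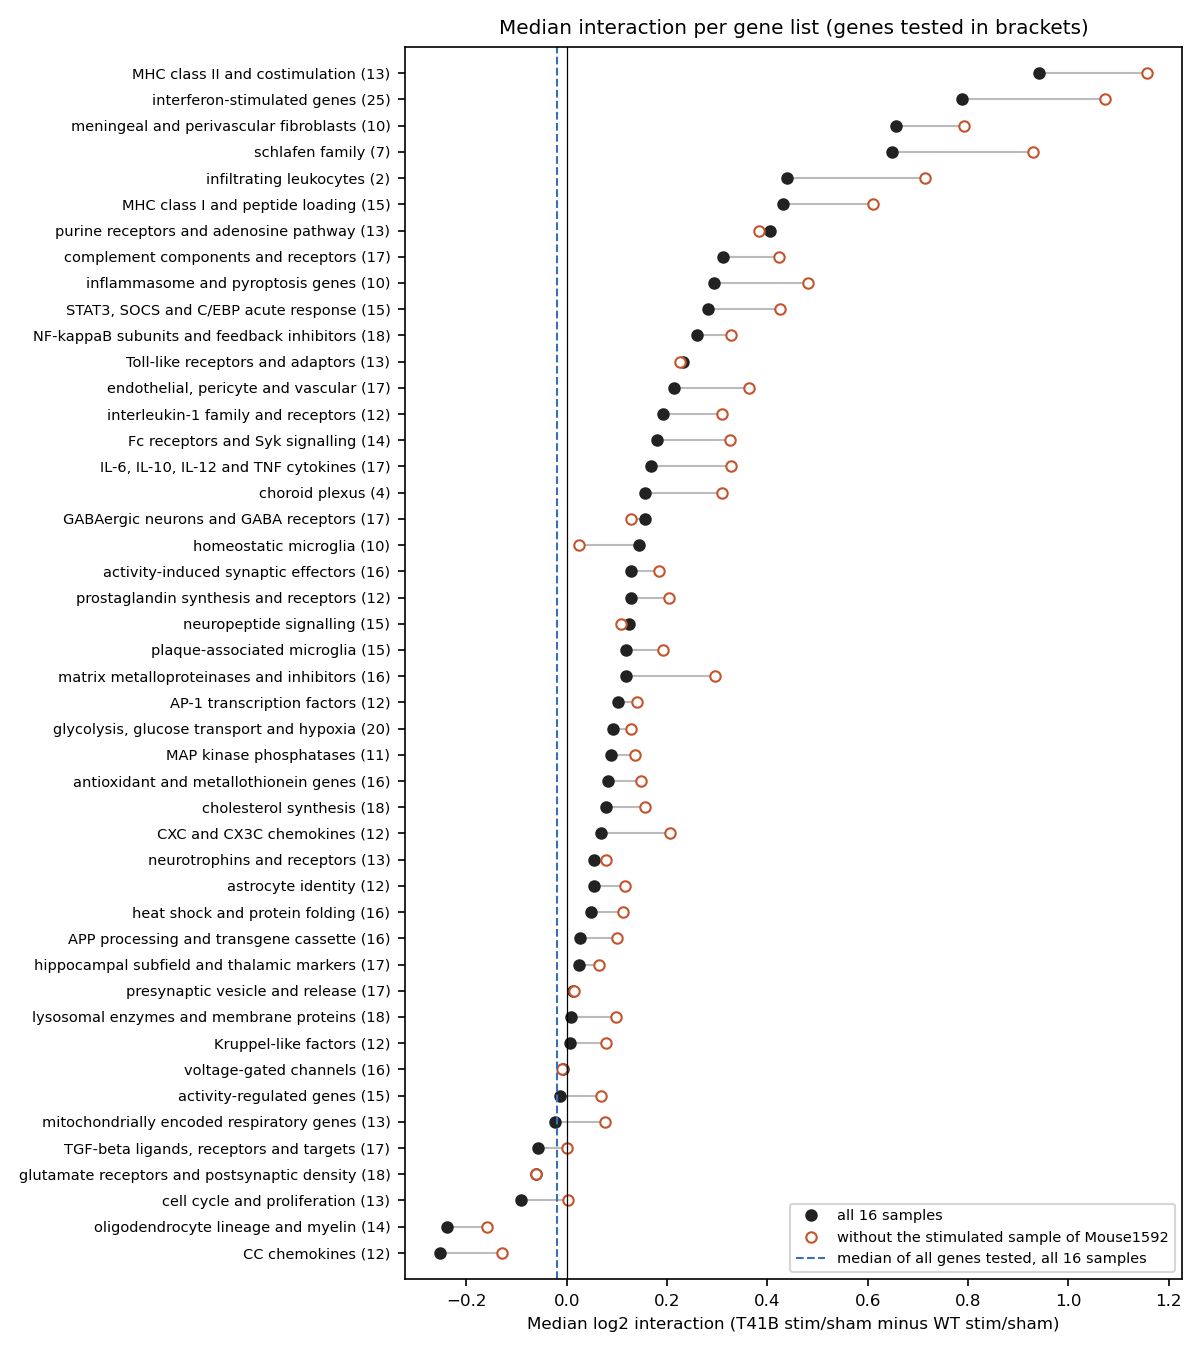
Median log2 interaction of each of the 46 lists, with the number of genes tested in brackets, for all 16 samples (filled) and without the stimulated sample of Mouse1592 (open). MHC class II, the interferon-stimulated genes and the fibroblast markers have the largest medians, at 0.94, 0.79 and 0.66, and the dashed line marks all genes at -0.0194.

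Leaving out samples showed how far 1 slice set the calls. Each of the 10 mice was left out in turn, and so was each single slice of the 6 mice with both, which made 22 repeats of the fit. Calls appeared in 4 of them. Without the stimulated sample of Mouse1592 edgeR called 148 genes of 18899, 145 higher (0.767% of those tested) and 3 lower (0.0159%). Without both slices of that mouse it called 78, and without Mouse1571, or its stimulated slice alone, it called 1. Without that sample limma-voom called 108 genes with no block and 467 (422 higher and 45 lower) with the mouse as a random block. The 148 genes all had the same sign with every sample in the fit, and 137 of them were at an unadjusted p under 0.05 there.

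Of the interferon-stimulated list 6 of 25 genes were called higher without that sample, against 0.767% of all genes, among them Cmpk2, Stat2, Ifit2, Irf9 and Ddx58, and the median moved from 0.79 to 1.07. That sample was singled out for its low values, and it was the lowest stimulated T41B sample in all 25 of these genes. Leaving it out thus raises their interactions in advance, so the calls of this and similar lists are not separate support. The MHC class I list had 3 of 15 (Tapbp, Tap1 and Tap2) and its median moved to 0.61. Of MHC class II and costimulation 1 of 13 was called (Cd40), of the Toll-like receptor list 3 of 13 (Tlr3, Myd88 and Cd14), and of the complement list 2 of 17 (C1qa and C1ra). The homeostatic microglia, neurotrophin, activity-regulated and glutamate receptor lists had 0 called by edgeR, with 10, 13, 15 and 18 members tested. Other genes described above that were called higher without that sample were Slfn5 at 2.595, Fcgr1 at 2.81, Hspb1 at 1.39, Ikbke at 1.28, Cish at 1.115, Pfkfb3 at 0.94, Fosl2 at 0.69 and Sod2 at 0.65. Rnf180 at 1.49, Adamts8 at 1.41, Gm7967 at 2.04, Atp13a5 at 1.04 and Il10ra at 1.24 were also called, and Ifi203 and Ptgs2 are given below. The median of the STAT3, SOCS and C/EBP list moved from 0.28 to 0.43 and that of the Fc receptor list from 0.18 to 0.33.

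The smallest adjusted p values without that sample belonged to Ifi203 and Samhd1. Samhd1, a nucleotide hydrolase that restricts viruses, was chosen after its values were seen. It was 14.1, 16.4 and 15.3 CPM in wild-type stimulated and 53.0, 62.9, 45.5, 55.8 and 15.9 CPM in T41B stimulated slices, with sham samples of either genotype between 11.61 and 14.2 CPM. Its interaction was 1.51 (SE 0.39) with every sample and 1.79 (SE 0.15, edgeR adjusted p = 1.5e-05) without that of Mouse1592. For Ifi203 the interaction without it was 3.19 and the adjusted p 3.8e-06. Ptgs2 was at 2.53 without it (edgeR adjusted p = 0.00091). Over all 57 alternatives (edgeR, limma or DESeq2) the adjusted p ranged from 1.77e-34 to 1 for Ifi203, from 4.31e-23 to 1 for Samhd1 and from 4.09e-12 to 1 for Ptgs2, and the sign of each held in all 57. Several called genes outside the lists are also known to answer interferon, among them Eif2ak2, Rnf213, Trim25, Parp12 and Gbp9, and these too were chosen after their values were seen. The 3 genes called lower were St14, Ywhaq-ps3 and the kinase gene Mknk1. The core response element occurred in 22 of the 111 genes called higher that had a promoter in the table (19.8%), against 3.80% of genes tested. These genes were called in the fit without a sample that was low for interferon-stimulated genes. Their share is therefore not separate support for the interaction.

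**Figure D4:**
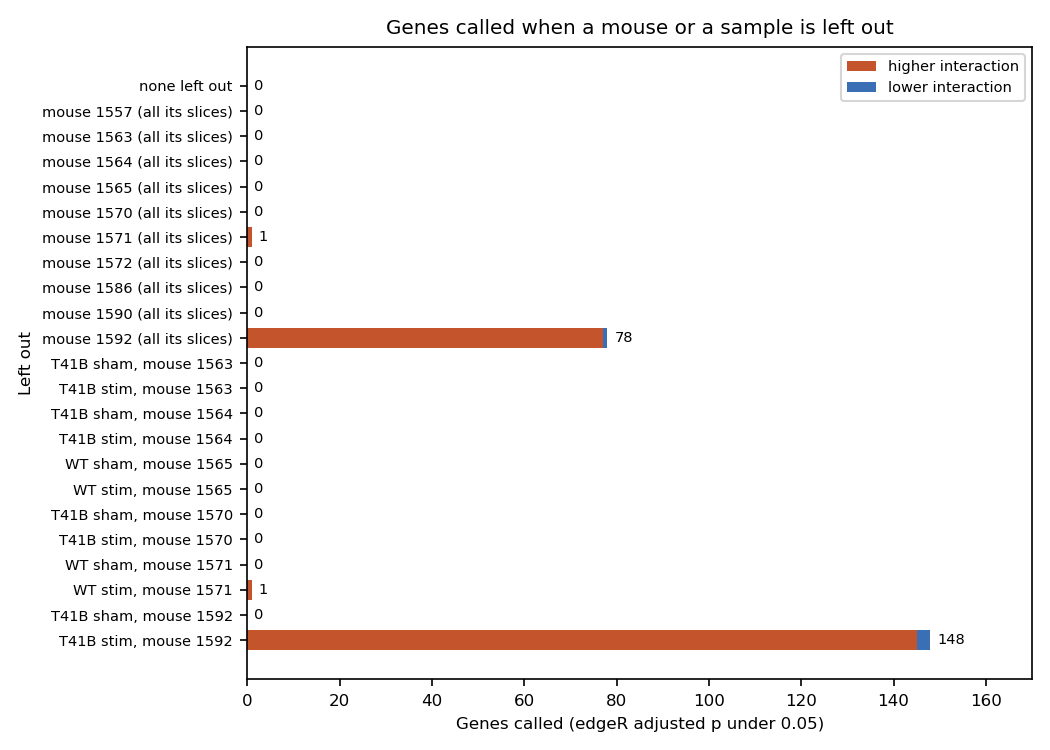
Number of genes called by edgeR at an adjusted p under 0.05 when a mouse or a single slice is left out, split into higher and lower interactions. The fit with every sample calls 0, leaving out the stimulated sample of Mouse1592 calls 148, leaving out that mouse calls 78, and the other bars are at 0 or 1.

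The libraries came from 4 labelled batches, of which only batch I held all 4 groups. Within batch I, which has 2 wild-type mice and the T41B mice Mouse1570 and Mouse1572, edgeR called 24 genes, 21 higher and 3 lower, and 13 of them were among the 148. This fit rests on 2 wild-type sham, 2 wild-type stimulated, 1 T41B sham and 2 T41B stimulated samples and assumes that the lone sample varies like the others. Batches B, D and H could give no value of their own, because each lacked at least 1 group. With batch as a term 0 genes were called with every sample and 120 without the stimulated sample of Mouse1592. That sample came from batch D together with the sham samples of Mouse1590 and of Mouse1592 itself. Mouse1592 was the only stimulated sample of batch D, so for it slice and batch cannot be told apart.

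The same interaction was measured in vehicle-treated mice (8 mice, 4 samples in each of the 4 groups), and the difference between them was tested in a fit with all 8 groups. No gene of 19478 passed (0 genes, 0%, edgeR). There were 609 at an unadjusted p under 0.05 (3.13%), and DESeq2 also called 0, with 631 at an unadjusted p under 0.05. With the mouse as a random block 0 were called and 1540 were at that level (limma-voom). Without the stimulated sample of Mouse1592 edgeR called 0, with 687 at that level. No batch held both treatments, so that treatment and batch cannot be told apart here.

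Several of the genes named above had a vehicle interaction of the same sign. In that fit Ifi203 was at 2.21 (SE 0.51) in vehicle-treated mice, Ptgs2 at 2.01 (SE 0.47), Stat2 at 0.75 (SE 0.31), St14 at -1.16 (SE 0.31), Igsf6 at -1.30 (SE 0.32) and Itga5 at -1.07 (SE 0.27). Some list medians lay further apart, in either direction. The schlafen family was at 0.66 in BD10-2-treated and 1.62 in vehicle-treated mice, with 5 of 7 positive in both. The interferon-stimulated list was at 0.80 in BD10-2-treated and -0.17 in vehicle-treated mice, with 25 and 11 of 25 genes positive, where 45.0% of all genes were positive in vehicle-treated mice, and MHC class II and costimulation at 0.95 and -0.42, with 13 and 5 of 13 positive. Of these lists 1 of 25 and 4 of 13 genes had an unadjusted p under 0.05 for the difference between treatments, against 3.13% of all genes. The widest gap was that of the choroid plexus markers, at 0.17 and -3.28 over the 4 of 9 that passed the filter on low counts. Ttr, the leading choroid plexus marker, had an SE of 2.89 in vehicle-treated mice, and 2 of the 4 were at an unadjusted p under 0.05 for the difference. The part of that tissue in the comparison was not tested. C1qa was at -0.04 and Fcgr3 at -0.18 (SE 0.32) in vehicle-treated mice, with differences between treatments of 0.89 and 1.19.

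**Figure D5:**
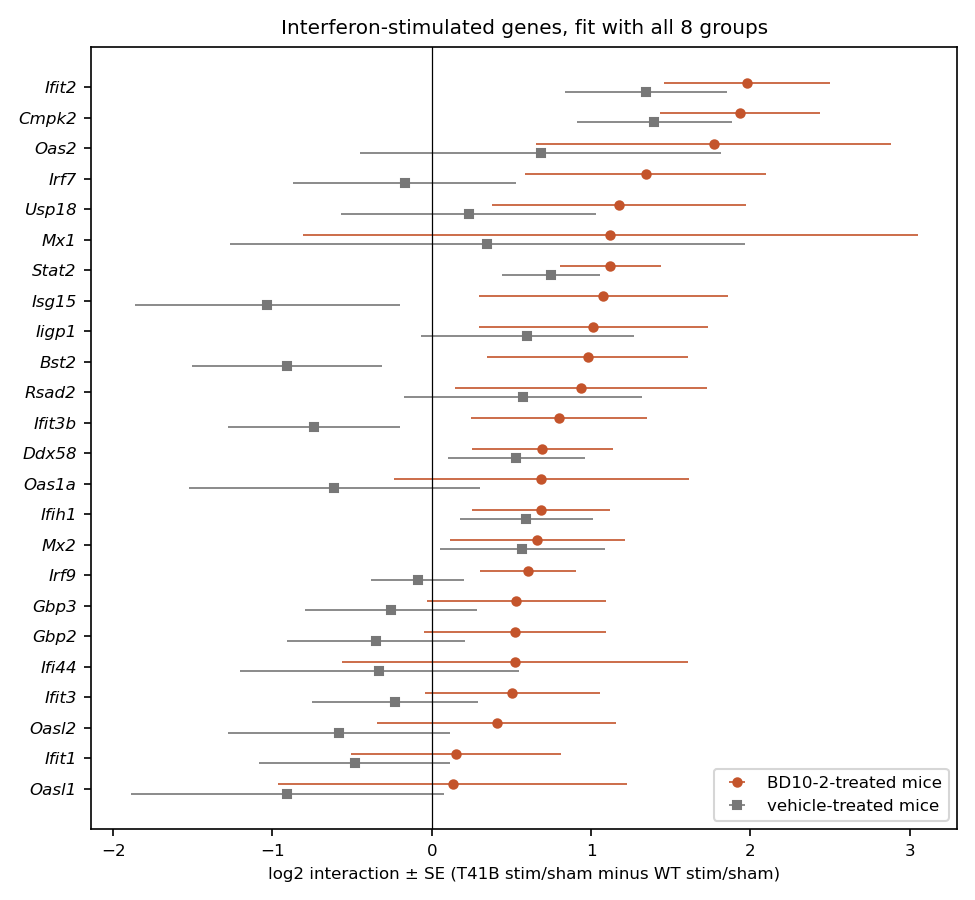
Log2 interaction with its standard error for 24 of the 25 interferon-stimulated genes in BD10-2-treated (circles) and vehicle-treated (squares) mice, from the fit with all 8 groups. All 24 circles lie above 0 and 11 squares do, and no gene passed the test of the difference.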

How the data were processed

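The authors deposited a table of expected counts per gene from RSEM, which need not be whole. Per the submitters' processing notes, the tools were cutadapt 1.8.1, STAR 2.7.6a, RSEM 1.3.1, featureCounts 1.6 and SAMtools 1.11, with the builds GRCm38.p6 and mm10. The annotation release and strand setting are not given in the sources used here. Per the labels, a stranded kit that removes ribosomal RNA was used on 200 ng of RNA. Expected counts of libraries with the same mouse and stimulation were summed and rounded to whole numbers. In 4 such combinations the libraries differed at 8.1 to 31.6 in chi-square per degree of freedom, and libraries of different mice in a group at 8.93 to 77.0.

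Genes were kept by filterByExpr (minimum count 10) and fitted with edgeR 4.0.16 (TMM, quasi-likelihood F test, 1 coefficient per group, Benjamini-Hochberg adjustment). Standard errors are the log2 interaction divided by the square root of F. Alternatives used limma 3.58.1 and DESeq2 1.42.0, in R 4.3.3. Symbols came from GENCODE M21, and 55154 of 55421 identifiers had one. The members and lists were chosen with earlier results of these data known. Named genes are the 10 with the smallest p in each direction at 1 CPM or more in a group, the 2 with the smallest p in each list or the 2 with the largest wild-type log2 ratio, and Thy1, App, Bdnf, Ntrk2 and Ntrk3. Others were chosen after their values were seen: H2-Ab1, Ifit2, Ifit3, Irf9, Ddx58, Tap1, Myd88, Cd14, Samhd1 and Mknk1. So were the interferon-answering genes outside the lists named in the comparison without the stimulated sample of Mouse1592. The 2 slices of a mouse come from the same animal, per the labels, and their deviations from group means correlated at 0.195 to 0.599 over genes (mean 0.318, 6 pairs, against -0.0684 for 28 pairs of different mice). The fit has no mouse term, and fits with a block are alternatives. The function was tested on simulated data. A few genes that meet the rule are not reported here. Alternatives changed the scaling, filter, tool, batch term, library choice and samples.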

Additional observations from a re-analysis of the deposited data

Results flagged for a closer look

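In groups of 5 T41B samples, the highest or lowest sample was compared with the others by its gap relative to the range (critical value 0.71). Of 142 groups looked at, 8 stood out, and chance gives about 1 in 20, or 7.1. The stimulated sample of Mouse1592 was the low one in 3 of the 8. Its interferon-stimulated score (mean log2(CPM + 1)) was 4.58 against 6.46 to 7.08 in the others, its STAT3, SOCS and C/EBP score 5.15 against 5.66 to 5.83, and its schlafen score 2.51 against 4.22 to 4.89. In the stimulated group Mouse1572 had the highest fibroblast score, at 2.40 against 2.16 to 2.23. Among T41B sham samples, Mouse1563 had a cholesterol synthesis score of 5.57 against 5.40 to 5.45 and an oligodendrocyte score of 6.89 against 7.27 to 7.38. Mouse1564 had the lowest sham value of Ifi203, 1.38 CPM against 2.42 to 2.74, and the highest of Cish, 6.85 CPM against 4.47 to 4.96. The causes were not tested.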

How the results depend on the processing

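No gene was called in 10 of 14 changes of tool, scaling, filter, batch, block or library. The other 4 were DESeq2 with 16 (14 higher, 2 lower), no filter on low counts with 3 (2 and 1), batch I alone with 24 (21 and 3), and the mouse as a random replicate block with 1 (0 and 1). The fixed replicate block over the 6 mice with paired slices called 0, with 1419 at an unadjusted p under 0.05. Leaving out mice or slices gave 0 to 148 genes (0 to 145 higher, 0 to 3 lower), 1 without Mouse1571 or its stimulated slice. Chosen after seeing the data, the stimulated sample of Mouse1592 was left out together with another change: RLE factors 133 (130 and 3), DESeq2 289 (270 and 19), limma-voom 108 (107 and 1), random replicate block 467 (422 and 45), batch term 120 (114 and 6), all 8 groups 83 (81 and 2). Leaving out a further sample gave 50 to 183 (50 to 179 higher, 0 to 4 lower). The causes were not tested.

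Of 120 genes followed through 57 alternatives, 110 kept their direction in all. Signs turned for Ptger4 (0.15) and Mcm2 (0.017) in batch I, Prlr (-0.017) with the fixed block, and Cd8a (-0.27 with the batch term, -0.78 with the fixed block, -0.025 with the batch term and without the stimulated sample of Mouse1592). Trbc2 turned with the first library (-0.41) and on leaving samples out (range -0.22 to 0.74), as did Osm (-0.15 to 0.80), P2ry12 (-0.013 to 0.72) and mt-Atp8 (-0.41 to 1.61) on leaving samples out. Thy1 turned with the batch term (-0.11, and -0.0093 without that sample), in batch I (-0.049), with the first library (-0.040) and on leaving samples out (-0.046 to 0.27). Ntrk3 turned with RLE (0.0089), DESeq2 (0.0089), no filter (0.014), a CPM filter (0.022), the first library (0.11), limma-voom without that sample (0.0052) and on leaving samples out (-0.10 to 0.13). The fibroblast median fell to 0.087 in batch I and 0.060 with the fixed block. Groups of 3 to 5 mice limit the precision of the interaction.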
